A study of Mus musculus with 2 samples.

Results

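The cells described here are monocytes of the mouse alveolar bone that were high in interferon-stimulated genes. Which type of interferon lay behind these levels was not tested. The cells were chosen by their measured levels of marker genes. A barcode belonged to them when it passed the quality filter (at least 200 genes and at most 5% of unique molecular identifiers, UMIs, from mitochondrial genes), when the marker genes of 7 other cell states each stayed under a set share of its UMIs, and when the 4 interferon-stimulated genes Isg15, Ifit3, Irf7 and Rsad2 together made up at least 0.1% of its UMIs. The other 7 gates kept out barcodes high in S100a8 and S100a9 (5% of UMIs), in Elane, Mpo, Prtn3 and Ctsg (1%), in the proliferation genes Mki67, Top2a, Birc5 and Ube2c (0.04%), in the C1q genes (0.05%), in the MHC class II genes H2-Aa, H2-Ab1, H2-Eb1 and Cd74 (1.5%), in Ace, Treml4, Eno3 and Adgre4 (0.04%) and in Saa3 (0.5%). This left 127 interferon-response monocytes among 4887 kept barcodes, 81 in the control library and 46 in the library after orthodontic force (OTM). They are set against the 740 control and 244 OTM monocytes that passed every other gate but held less of the 4 genes, called the other monocytes below.

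Type I interferons are secreted proteins that bind a receptor found on nearly all cells, and the JAK kinases and STAT transcription factors downstream of it turn on a large shared set of antiviral genes. Monocytes are circulating precursors that enter inflamed or remodelling tissue through the chemokine receptor Ccr2 and can become macrophages there. In bone, cells of the monocyte line are also precursors of osteoclasts, and interferon signalling is known to restrain osteoclast formation.

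Both libraries were made by 10x droplet sequencing of F4/80+CD11b+ cells, sorted from alveolar bone of mice that were 8 weeks old, which the study's methods give as male C57/B6 J animals. The control mice had no force applied, and the OTM mice (the case of the labels) had a coil spring pulling the left first molar for a week. No transgene or drug is named for either group. Each condition is 1 library. The study's methods give a total of mice divided between the 2 groups for sequencing, but the number of animals behind each library is not stated. All differences below are therefore descriptions of 2 libraries without a test or a replicate check, and their 95% intervals cover counting error only.

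The control library held 2863 barcodes with a median of 4001 UMIs and the OTM library 2058 with a median of 6856.5. The interferon-response monocytes followed this difference in depth, with a median of 4356 UMIs in control and 7049 in OTM, close to the other monocytes of the same library (4100 and 7039.5). The 2 libraries shared 6 barcode sequences, none of them a member. The Saa3 gate removed 27 barcodes from control and 351 from OTM, so that the monocytes left in OTM were those under 0.5% of UMIs from this acute-phase gene. One control member stood apart: it held 59 UMIs of the keratin gene Krt7, 16 of Krt19 and 24 of the mucin gene Muc1, but 3 of Lyz2 and none of Csf1r. It gave 155 of the 239 Ly6a UMIs of all 81 control members, and values that rest on it are given with and without it.

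**Figure D1:**
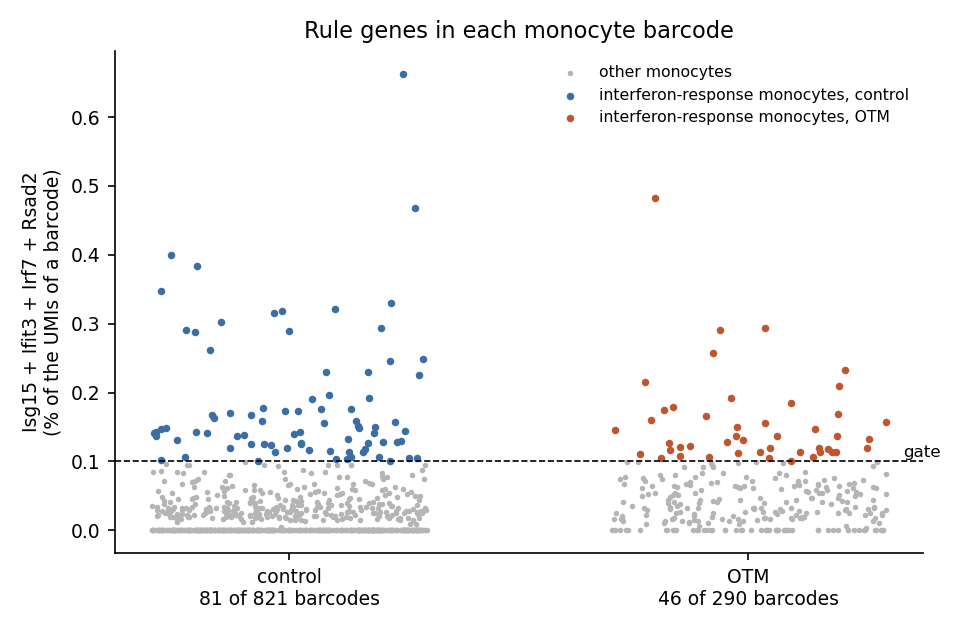
Share of a barcode's UMIs (percent) from Isg15, Ifit3, Irf7 and Rsad2 for each monocyte barcode, control at left and OTM at right. The dashed line marks the 0.1% gate, coloured points are the 81 and 46 interferon-response monocytes, and grey points are the other monocytes. In both libraries the points thin out without a gap at the gate, and the highest members reach 0.663% in control and 0.482% in OTM.

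The promoters of 4 interferon-stimulated genes are shown because they carry the sequence that interferon-activated factors of the STAT and IRF families are known to bind. Each line gives the 160 bases before a RefSeq start of the gene (mouse build GRCm38.p6), 5′ to 3′ on the gene's strand. Capitals mark matches, on either strand, to the core of the interferon-stimulated response element (ISRE core). This core was searched as GAAA, any 2 bases and GAAA again. The first 3 are genes of the rule, and Bst2, which encodes the virus-tethering protein tetherin, was not used by it.
Isg15, chr4:156200819-156200978, minus strand: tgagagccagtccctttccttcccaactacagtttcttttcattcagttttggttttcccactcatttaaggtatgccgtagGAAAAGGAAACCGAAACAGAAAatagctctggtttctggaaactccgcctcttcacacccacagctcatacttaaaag
Ifit3, chr19:34583369-34583528, plus strand: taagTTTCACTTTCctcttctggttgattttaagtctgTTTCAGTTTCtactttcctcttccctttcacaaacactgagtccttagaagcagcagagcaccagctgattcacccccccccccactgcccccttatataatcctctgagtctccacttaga
Rsad2, chr12:26456453-26456612, minus strand: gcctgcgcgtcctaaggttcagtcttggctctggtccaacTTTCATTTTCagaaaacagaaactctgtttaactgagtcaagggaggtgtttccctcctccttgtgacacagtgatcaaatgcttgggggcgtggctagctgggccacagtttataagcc
Bst2, chr8:71537473-71537632, minus strand: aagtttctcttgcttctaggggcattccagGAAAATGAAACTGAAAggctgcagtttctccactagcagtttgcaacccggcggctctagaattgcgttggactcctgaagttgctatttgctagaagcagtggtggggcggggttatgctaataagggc

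In Isg15, 3 overlapping matches lay between 78 and 57 bases before the start. Ifit3 held matches at 156 to 147 and at 122 to 113 bases before the start, and Rsad2 held 1 at 120 to 111 bases. The start used for Ifit3 lay inside the annotated gene (chr19:34583119-34588982), not at its first base. In Bst2, 2 overlapping matches ran from 130 to 115 bases before the start. The STAT motif TTCNNNGAA at 136 to 128 overlapped the first of them. Across the 27025 genes with a RefSeq promoter window of 300 bases (250 before and 50 after the start), 3.99% held the ISRE core and 9.55% held TTCNNNGAA on either strand. The window of Irf7 held no match to these letters. Of the antiviral effector genes with a window, 15 of 35 (42.9%) held the ISRE core, as did 8 of 10 genes of the p200 family (80%) and 10 of 11 interferon-inducible GTPases (90.9%). The share was 4 of 18 (22.2%) for MHC class I presentation genes, 1 of 18 (5.56%) for inflammatory genes of the NF-kB response and 0 of 16 for immediate early and heat shock genes. These are matches of letters, not binding sites.

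Interferon-response monocytes made up 2.86% of the kept control barcodes (95% Clopper-Pearson interval 2.28 to 3.54%) and 2.24% of the kept OTM barcodes (1.65 to 2.98%). Among the monocytes that passed every other gate they were 9.87% in control (81 of 821, 7.91 to 12.1%) and 15.9% in OTM (46 of 290, 11.9 to 20.6%). The intervals of the first pair overlapped, with the OTM share itself just under the control interval, and the intervals of the second pair overlapped by little, with the removal of 351 OTM barcodes by the Saa3 gate bearing on the second denominator. With every barcode thinned to 1500 UMIs before the gates, 87 control and 41 OTM barcodes passed, of which 48 and 22 were members on all UMIs.

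The 4 genes of the rule chose these cells, and their values describe the choice. Isg15, a ubiquitin-like protein attached to other proteins during the antiviral response, was found in 68 of 81 control and 44 of 46 OTM members. Irf7, the transcription factor that amplifies type I interferon production, was found in 67 and 43. Rsad2 (viperin, which blocks viral replication) was found in 36 control and 9 OTM members, and Ifit3, a partner of the RNA-binding Ifit proteins, in 25 and 8. Isg15 and Irf7 thus carried most of the rule, with 44.6% and 35.7% of the rule UMIs in control and 52.1% and 42.9% in OTM. Rsad2 gave 10.8% of the rule UMIs in control and 2.41% in OTM, and Ifit3 gave 8.84% and 2.63%. In the barcodes high in the granulocyte precursor genes Elane and Mpo, none of which passed the interferon gate, Isg15 was found in 10 of 39 control and 5 of 19 OTM barcodes, at median depths of 14864 and 15060 UMIs.

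The gate rested on few molecules per cell. Members held a median of 7 rule UMIs in control (2 to 67) and 10 in OTM (3 to 31), and 11 control and 2 OTM members held only 1 of the 4 genes. At the threshold, the lowest control member had a share of 0.1002% and the highest barcode left out 0.0995%, and in OTM these were 0.101% and 0.0995%. Between the gate and 0.12% lay 18 members of each library, and 26 control and 19 OTM monocytes lay between 0.08% and the gate. Of the other monocytes, 422 of 740 in control and 55 of 244 in OTM held no rule UMI at all.

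The label given to these cells names Irf7, Isg15, Ly6a and Ifi204. The last pair was not part of the rule. Ly6a (Sca-1), a surface protein of stem and progenitor cells that interferon also turns on, stood at 221 (176 to 274) UMIs per 1000000 UMIs (CPM) in the control members without the keratin-carrying barcode and at 36.8 CPM in the other control monocytes, a ratio of 6.0 (4.49 to 7.99). With that barcode the members stood at 611 CPM. In OTM, Ly6a stood at 256 CPM in members and 67.9 CPM in other monocytes, a ratio of 3.77 (2.80 to 5.05). Only a minority of members held it: 22 of 81 and 18 of 46, against 54 of 740 and 41 of 244 other monocytes and 9 of 39 and 2 of 19 of the barcodes high in Elane and Mpo. Ifi204, a nuclear DNA sensor of the p200 family, was found in 56 of 81 control members (348 CPM against 95.7, ratio 3.63, 2.95 to 4.46) and in 34 of 46 OTM members (302 CPM against 160.4, ratio 1.88, 1.47 to 2.39). In the barcodes high in Elane and Mpo it was found in 3 of 39 and 2 of 19. On the reference, Isg15 lies at chr4:156199424-156200818, Irf7 at chr7:141263183-141266499, Ly6a at chr15:74994877-74998031 and Ifi204 at chr1:173747293-173767069 (GRCm38, whole genes).

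Markers of classical monocytes were present. The lysozyme gene Lyz2 was found in all 81 control and all 46 OTM members, at 27111 and 29745 CPM, against 25432 and 23904 CPM in the other monocytes. Ccr2 stood at 532 CPM in control members (68 of 81 barcodes) and 548 CPM in OTM members (39 of 46), close to the 479 and 446 CPM of the other monocytes. Csf1r, the receptor for the macrophage growth factor CSF-1, was found in 46 and 21 members. The genes of the sort markers were also found in part of the members: Adgre1, which encodes F4/80, in 27 of 81 and 27 of 46, and Itgam, which encodes CD11b, in 35 and 21. The sample labels call the sorted cells macrophages, while the C1q genes of mature tissue macrophages were kept under 0.05% of UMIs in every member by the rule.

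A pair of the monocyte markers set the members apart. Ly6c2, the surface antigen of classical inflammatory monocytes, stood at 5983 CPM in control members and 1926 CPM in other control monocytes, a ratio of 3.11, and at 3751 against 2349.5 CPM in OTM, a ratio of 1.60. Fcgr1, the high-affinity IgG receptor CD64, had a ratio of 3.72 in control (496 against 133 CPM) and 1.46 in OTM (380.4 against 259.7 CPM). Among all 12 classical monocyte markers these were the only 2 that were at least 2-fold higher in control members, none was 2-fold higher in OTM members, and none was 2-fold lower in either. Of all genes with at least 20 UMIs, 6.42% were 2-fold higher and 7.63% lower in control members, and 5.17% and 6.5% in OTM members.

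Other cell types were rare among the members. Siglech and Ccr9, defining genes of plasmacytoid dendritic cells, had no UMI in any member, and neither had the T cell gene Cd3e or the NK cell gene Ncr1. The whole list of 9 plasmacytoid genes summed to 925 against 345 CPM in control (ratio 2.68, 2.38 to 3.02) and to 430 against 285 CPM in OTM (ratio 1.51, 1.23 to 1.83), and the interferon-induced Bst2 gave 336 of the 362 control and 122 of the 131 OTM member UMIs of this list. Zero UMIs allow up to 7.67 CPM over the control members and 9.84 CPM over the OTM members (3 counts). The neutrophil list summed to 10429.9 CPM in control members against 8110.3 CPM in other control monocytes, and to 8414 against 11266 CPM in OTM, most of it S100a8 and S100a9 below their gate. By the marker lists, 5 of 81 control and 3 of 46 OTM members held more neutrophil than monocyte UMIs, the keratin-carrying barcode among them. Whether these barcodes were mixtures was not tested.

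Across the genome the members differed from the other monocytes of their library in few genes. Of 3238 genes with at least 100 UMIs over both groups, 85 (2.63%) were at least 2-fold higher in the control members and 70 (2.16%) at least 2-fold lower, and without the keratin-carrying barcode these numbers were 81 (2.5%) and 67 (2.07%) of 3234. In OTM, 32 of 2133 genes (1.5%) were at least 2-fold higher in the members and 34 (1.59%) at least 2-fold lower. Without the keratin-carrying barcode, the 10 genes with the highest ratios in control were the rule genes Rsad2, Irf7 and Isg15, followed by Cfb, Rtp4, Ly6a, Oasl2, Phf11b, Ifi47 and Pyhin1. With it, Csta1, Plet1, Ecm1 and Gsto1 led, and all 129 Csta1, 167 of 168 Plet1, 109 of 111 Ecm1 and 1605 of 1641 Gsto1 UMIs came from that single barcode. Cfb, complement factor B, stood at 182 CPM in the remaining 80 control members and 26.9 CPM in other monocytes, a ratio of 6.76 (4.86 to 9.36), and had a ratio of 2.86 (2.10 to 3.86) in OTM. Pyhin1, a further gene of the p200 family, had a control ratio of 4.64 (3.31 to 6.44).

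The antiviral effectors were higher in the members as a group. Among the 41 of these genes with at least 20 UMIs in control, 33 were at least 2-fold higher in the members and none was 2-fold lower, with a median log2 ratio of 1.62, while 6.42% of all 7209 genes with that minimum were 2-fold higher and their median was 0.02. Without the keratin-carrying barcode 31 of 41 were higher, against 6.3% of all genes. In OTM, 16 of 35 were at least 2-fold higher and none was 2-fold lower, with a median of 0.97, against 5.17% of 5566 genes and a median of 0.05. In counting UMIs over the whole list, the members stood at 23525 CPM in control and 18268 CPM in OTM, and the other monocytes at 11981 and 13759.6 CPM. The list without the 4 rule genes thus showed a narrower gap between members and other monocytes in OTM than in control. The difference between the libraries was not tested.

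**Figure D2:**
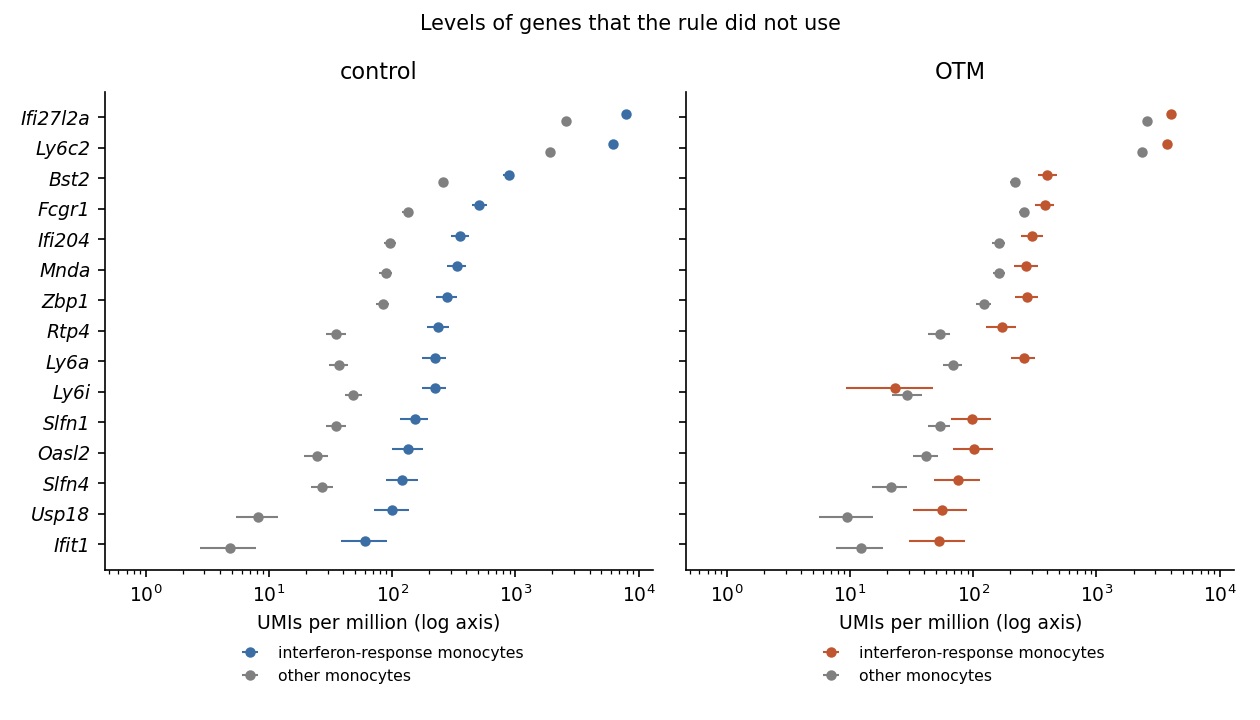
Level (CPM, log axis) of 15 genes that the rule did not use, in interferon-response monocytes (coloured) and other monocytes (grey) of the control library at left and the OTM library at right. Points are summed levels, bars are exact Poisson 95% intervals, and the keratin-carrying control barcode is left out. In control all 15 genes stand higher in the members, and in OTM Ly6i does not, with 23 CPM against 29.2.

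Single effectors illustrate the range. Rtp4, an inhibitor of virus replication, stood at 230.0 CPM against 35.3 in control (ratio 6.51) and at 171 against 53.3 CPM in OTM (ratio 3.20). Usp18, the protease that removes Isg15 and dampens the receptor, stood at 97.1 against 8.15 CPM in control and at 55.7 against 9.54 CPM in OTM, and was found in 20 of 81 and 13 of 46 members. Ifi44 stood at 61.3 against 3.92 CPM in control and at 78.7 against 18.5 CPM in OTM. Rtp4 was found in 42 of 81 and 25 of 46 members, and Ifi44 in 18 and 16.
The most abundant members of the list showed smaller ones. Ifi27l2a, an interferon-stimulated gene, stood at 7728.5 against 2571 CPM in control (ratio 3.01) and at 4039.9 against 2555 CPM in OTM (ratio 1.58). Bst2, whose promoter is printed above, stood at 859 against 259 CPM in control (ratio 3.32) and at 400.1 against 218 CPM in OTM (ratio 1.83). Ifitm3, which blocks virus entry, had ratios of 1.56 and 1.21, and Ifitm2 of 1.10 and 0.904. Ifitm1 depended on 1 barcode in control, with a ratio of 2.46 with the keratin-carrying barcode and 0.894 without it. Ifit2 was found in 10 control members (43.4 CPM) and in 1 OTM member. Reads of near-identical copies, such as Ifit3 and Ifit3b, the Oas1 genes, or the Ly6 genes, may be split between them.

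Smaller families of the interferon response followed. Of all genes with at least 20 UMIs, 6.42% were at least 2-fold higher in control members and 5.17% in OTM members. Of the p200 DNA sensors, 4 of 6 were at least 2-fold higher in the control members (median log2 ratio 1.5) and 0 of 5 in the OTM members (median 0.74). Mnda, a member of that family in myeloid cells, had ratios of 3.70 in control and 1.66 in OTM, and Mndal of 1.79 and 1.24. Of the interferon-inducible GTPases, which attack the vacuoles of intracellular microbes, 6 of 8 were 2-fold higher in control and 2 of 8 in OTM, with medians of 1.76 and 0.60. Ifi47 had ratios of 4.90 and 0.869, and Gbp5 of 4.02 and 2.26. Of the Ly6 and Schlafen families, 7 of 11 were 2-fold higher in control and 2 of 10 in OTM, with medians of 1.64 and 0.52. Slfn4 had ratios of 4.33 and 3.54 and Slfn1 of 4.2 and 1.85, while Ly6i had ratios of 4.42 in control (31 of 81 members) and 0.787 in OTM (6 of 46). In each of these families the median ratio was smaller in OTM than in control.

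The genes that receive and pass on the signal were counted apart from their targets. Of 22 receptor and signalling genes in control, 4 were at least 2-fold higher in the members and 1 was lower, with a median log2 ratio of 0.28. In OTM 2 of 20 were higher, with a median of 0.51. Of all genes, 6.42% were 2-fold higher and 7.63% lower in control, and 5.17% were higher in OTM. The control median was below those of the 4 target lists above, while in OTM it was close to the 0.52 of the Ly6 and Schlafen families. Irf1 had ratios of 2.08 in control and 2.15 in OTM, but 1.59 in control without the keratin-carrying barcode. Myd88, an adaptor of Toll-like receptors, had ratios of 2.07 and 1.52. The receptor subunit genes Ifnar1 and Ifnar2 had ratios of 1.74 and 1.21 in control and of 0.961 and 1.11 in OTM. Of the interferon genes themselves, the members of each library held 1 UMI in all.

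Of 20 genes of MHC class I presentation, which interferon is known to induce, 4 were at least 2-fold higher in the control members (6 without the keratin-carrying barcode), with a median log2 ratio of 0.58. In OTM 1 of 19 was, near the 5.17% of all genes, with a median of 0.32. B2m, the light chain of class I molecules, stood at 7194 CPM against 4788 in control and 6506 against 5392 in OTM. H2-T23 had ratios of 2.62 and 1.63, and the peptide transporter gene Tap1 of 2.26 and 2.21. Of the chemokines, 2 of 13 were 2-fold higher in control and 1 of 12 in OTM, against 6.42% and 5.17% of all genes, and these few genes do not set the list apart. Cxcl10, an interferon-induced attractant of T cells, stood at 296 against 125 CPM in control (24 of 81 members, ratio 2.38) and at 761 against 493 CPM in OTM (27 of 46, ratio 1.54). Cxcl9 was found in 2 members of each library.

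Genes of the inflammatory response did not set the members apart as a group. Of 24 NF-kB and inflammatory genes, 1 was at least 2-fold higher and 1 lower in control, with a median log2 ratio of 0.05. In OTM 1 was higher and 2 were lower, with a median of -0.04. Of all genes, 6.42% were higher and 7.63% lower in control, and 5.17% and 6.5% in OTM. Il1b stood at 2292 CPM in control members against 1961 CPM in other monocytes, and at 5929 against 6424 CPM in OTM. Il18 was the gene that was 2-fold higher in control, with a ratio of 2.24, and had a ratio of 1.98 in OTM. Il6 had a ratio of 0.479 in control and 1.19 in OTM. Monocyte trafficking and adhesion genes had medians of 0.15 and 0.21, and Plac8, a gene of classical monocytes, had ratios of 1.86 and 1.40.

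Osteoclast differentiation genes were not higher in the members. Of 14 with at least 20 UMIs in control, none was 2-fold higher in the members and 5 were 2-fold lower (median log2 ratio -0.40), against 7.63% of all genes lower (7.13% without the keratin-carrying barcode), and in OTM 5 of 11 were lower (median -0.84), against 6.5%, with 2 of them at 0 UMIs in the members. Acp5, the tartrate-resistant phosphatase of osteoclasts, stood at 30.7 CPM against 86.3 in control and at 85.3 against 155 CPM in OTM, ratios of 0.355 and 0.551. Tyrobp, a signalling adaptor needed for osteoclasts but used by all myeloid cells, had ratios of 1.04 and 1.13.

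A group that differed between the libraries was that of immediate early and heat shock genes, which many stimuli turn on. In control, 0 of 21 were at least 2-fold higher in the members and 1 was lower, with a median log2 ratio of 0.06. In OTM, 7 of 20 were 2-fold higher, with a median of 0.77, against 6.42% of all genes in control and 5.17% in OTM. Egr1, a growth-response transcription factor, had the highest ratio among the 2133 OTM genes with at least 100 UMIs, with 384 CPM in members (29 of 46) against 81.9 CPM in other monocytes (62 of 244), a ratio of 4.69 (3.64 to 6.02), while its control ratio was 1.36. Fos, Jun and Fosb, parts of the AP-1 transcription factor, had ratios of 3.18, 3.13 and 3.02 in OTM and of 1.44, 0.908 and 0.667 in control. A single barcode gave 93 of the 580 Fos UMIs, a single barcode 57 of the 159 Jun UMIs and a single barcode 15 of the 46 Fosb UMIs of the OTM members. In the other monocytes these 4 genes were lower in OTM than in control, with ratios of 0.589 for Egr1, 0.811 for Fos, 0.769 for Jun and 0.362 for Fosb. Hmox1, which breaks down heme, also stood among the 10 highest in OTM, with 77 of its 167 member UMIs in 1 barcode.

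**Figure D3:**
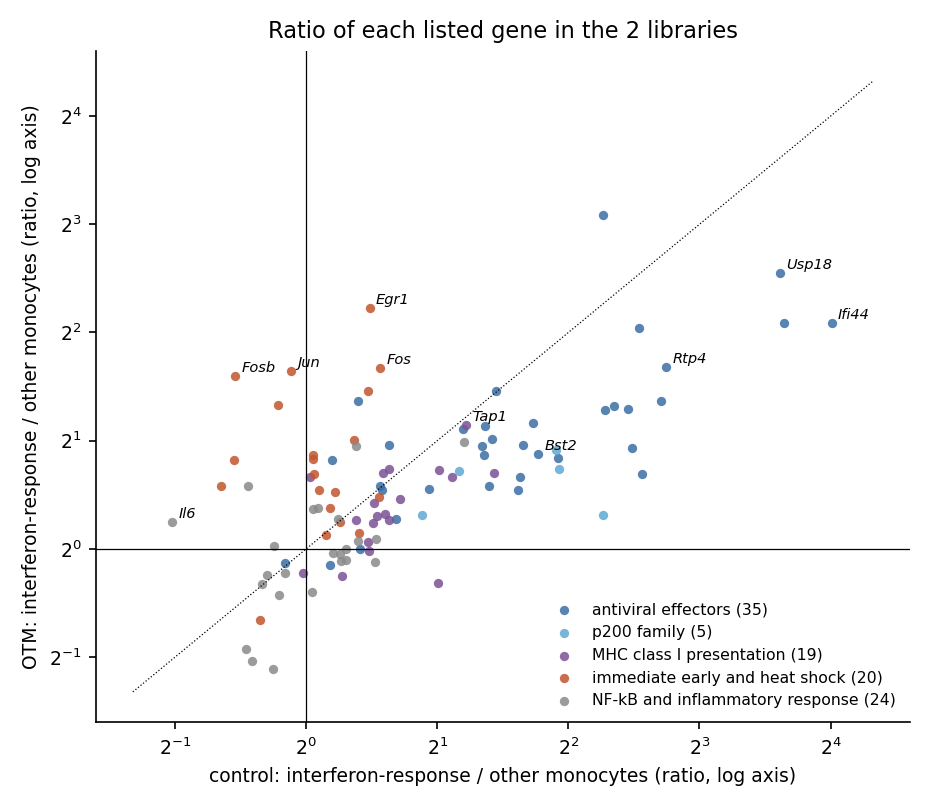
Ratio of interferon-response to other monocytes for each gene of 5 lists with at least 20 UMIs in both comparisons, control on the horizontal and OTM on the vertical axis (both log axes). The dotted line marks equal ratios, and the keratin-carrying control barcode is left out. Antiviral effectors such as Rtp4 (6.71 and 3.20) lie to the right, mostly below the dotted line, and Egr1, Fos, Jun and Fosb lie above it.

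Hemoglobin genes were among the 10 genes lowest in the members in both libraries. Over 5 hemoglobin genes the control members stood at 394 CPM and the other monocytes at 18073 CPM, and in OTM these were 118 and 31704 CPM. A few barcodes of the other monocytes held most of these UMIs, up to 6103 of Hbb-bs in 1 OTM barcode. Jchain, a plasma cell gene and the lowest of the 3238 genes in control, had no UMI in any member and 1441 UMIs in other control monocytes, 1431 of them in 1 barcode. The lymphocyte genes Gzma and Nkg7 had 1 UMI each in control members. In control, the direction rested on those barcodes: without the barcodes led by another cell type, the log2 ratios were 0.24 for Hba-a1, 0.28 for Hbb-bs and 0.47 for Hbb-bt, and that of Hbb-bs in OTM was 0.55. The members therefore held little RNA of red cells or lymphocytes, while the other monocytes contained barcodes with much of it. In OTM the metallothionein gene Mt2 (55.7 against 350 CPM, ratio 0.159) and Ear1 (26.2 against 122 CPM, ratio 0.216) were also lower, with Mt2 found in 5 of 46 members and 61 of 244 other monocytes.

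The interferon-response monocytes of the 2 libraries were then set against each other. Of 913 genes with at least 100 UMIs, 49 (5.37%) were at least 2-fold higher in the OTM members and 20 (2.19%) at least 2-fold lower. Without the keratin-carrying barcode these were 46 (5.1%) and 12 (1.33%) of 902. Among the other monocytes, 78 of 3922 genes (1.99%) were 2-fold higher and 93 (2.37%) 2-fold lower in OTM, and the same ratios in other monocytes are given beside those of the members below.

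Tnfsf9, the ligand of the T cell receptor 4-1BB, had the highest ratio of these 913 genes. It stood at 839 CPM in OTM members (26 of 46 barcodes, at most 58 UMIs in one) and at 48.6 CPM in control members (9 of 81), a ratio of 17.3 (10.8 to 29.2), and its ratio in other monocytes was 4.53. Areg, the growth factor amphiregulin, had a ratio of 12.1 (6.51 to 25.1), but was found in 9 OTM members, 1 of which held 41 of the 104 UMIs, and had a ratio of 3.34 in other monocytes. Zfp36l1, which destabilises messenger RNA, had a ratio of 6.13 (27 of 46 against 11 of 81 barcodes) and 3.10 in other monocytes. The cytokine genes Il6 and Il1a had ratios of 5.50 and 4.35, against 2.22 and 6.66 in other monocytes. A single barcode held 49 of the 163 Il6 UMIs and a single barcode 24 of the 95 Il1a UMIs of the OTM members.
Apoe, a lipid carrier of macrophages, stood at 5207 CPM in OTM members (44 of 46) and 1119 CPM in control members (49 of 81), a ratio of 4.65, against 2.76 in other monocytes. The chemokine genes Ccl4 and Ccl5 had ratios of 4.18 and 4.03, against 2.81 and 3.12. Ms4a8a and Lrg1 had ratios of 5.25 and 4.06, against 4.60 and 5.90. For all 10 of the highest genes the other monocytes were higher in OTM as well.

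Without the keratin-carrying barcode, the 10 genes with the lowest ratios of OTM to control members were Cxcr4, Lgals1, Mndal, G0s2, Ndufc1, Ifi203, Ly6c1, Ear2, BC005537 and S100a4. Cxcr4, the receptor that retains cells in bone marrow, stood at 95.1 CPM in OTM members and 332 CPM in control members, a ratio of 0.287 (0.185 to 0.432), and had a ratio of 0.337 in other monocytes. Lgals1, which encodes galectin-1, had a ratio of 0.309 (0.248 to 0.382) and 0.779 in other monocytes. The p200 genes Mndal and Ifi203 had ratios of 0.310 and 0.352, against 0.461 and 0.479 in other monocytes. Ly6a reversed with 1 barcode: its ratio was 0.419 with all control members and 1.16 without the keratin-carrying one, against 1.84 in other monocytes.

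By list, the antiviral effectors of the members were not higher in OTM. Of 34 antiviral effectors, 0 were at least 2-fold higher and 3 were 2-fold lower in the OTM members, with a median log2 ratio of -0.24, against 5.58% higher and 5.61% lower among all 3206 genes with at least 20 UMIs. Without the keratin-carrying barcode 1 was higher and 3 were lower, against 5.22% and 5.25%. In the other monocytes, 7 of 39 were 2-fold higher and 2 were lower, with a median of 0.16, against 3.08% and 6.15% of 7835 genes. Isg15 was 851 CPM in control members and 780 CPM in OTM members, but 92.1 and 176 CPM in other monocytes, a ratio of 1.91, and Irf7 had a ratio of 2.07 there. The 4 rule genes are held to the gate in the members, so their levels there say little. Bst2 had a ratio of 0.466 in members and 0.843 in other monocytes, Ifi27l2a of 0.523 and 0.994, and Ly6i of 0.107 and 0.600. The median was -0.67 for the p200 family, -0.65 for the Ly6 and Schlafen families and -0.11 for the GTPases, against -0.16, 0.25 and 0.89 in other monocytes. The receptor and signalling genes had a median of 0.23 in OTM members. Of these, 1 of 18 was at least 2-fold higher, near the 5.58% of all genes, and none was lower. In other monocytes 0 of 22 were higher and 1 was lower, with a median of 0.12.

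Part of the inflammatory genes stood higher in OTM in members and in other monocytes. Of all genes with at least 20 UMIs, 5.58% were 2-fold higher and 5.61% lower in OTM members. In other monocytes these shares were 3.08% and 6.15%. Among NF-kB and inflammatory genes, 7 of 24 were 2-fold higher in OTM members and none was lower (median 0.51), and in other monocytes 6 of 24 were higher and none lower (median 0.67). Among chemokines 5 of 11 were higher and 1 was lower in members (median 0.84), and 4 of 13 were higher and 2 lower in other monocytes (median 0.71). Immediate early and heat shock genes moved apart, with 5 of 19 higher and none lower in members (median 0.52) and 0 of 21 higher and 5 lower in other monocytes (median -0.25), although the summed list had a ratio above 1 in both (1.58 and 1.14). Tnf had a ratio of 5.53 (26 of 46 against 10 of 81 barcodes), Icam1 of 4.52 and Socs3, a feedback inhibitor of cytokine receptors, of 2.57, against 3.63, 2.16 and 1.52 in other monocytes.

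Within the members, Ly6c2 varied widely, from 0 to 1.58% of a barcode's UMIs in control and from 0 to 1.09% in OTM. Cut at 0.3%, a value chosen after seeing this range, 48 control members were Ly6c2-high and 32 Ly6c2-low, leaving out the keratin-carrying barcode, and 25 and 21 in OTM. Of the other monocytes, 135 of 740 (18.2%) and 67 of 244 (27.5%) were Ly6c2-high, against 60.0% and 54.3% of the members. Since this is a cut through a range, the sets are not separate types, and the high members were also the deeper ones, with median UMIs of 5179 against 3495 in control and 7726 against 6229 in OTM.

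**Figure D4:**
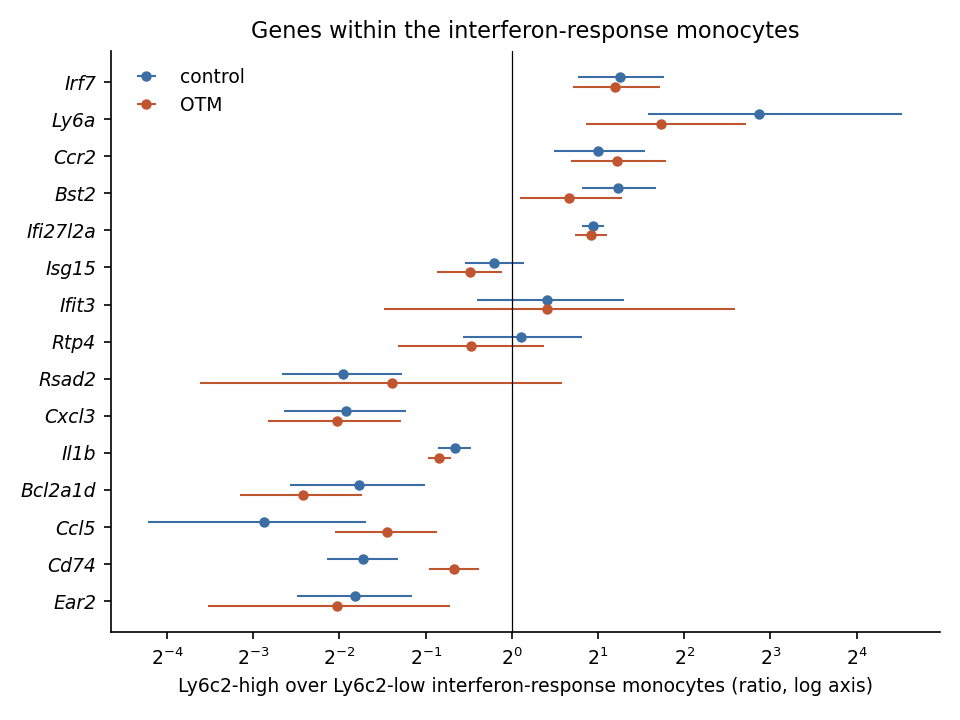
Ratio of summed levels in Ly6c2-high to Ly6c2-low interferon-response monocytes (log axis) for 15 genes, control in blue and OTM in orange, with exact 95% counting intervals. The rule gene Irf7 and Ly6a, Ccr2, Bst2 and Ifi27l2a lie above 1 in both libraries, and Cxcl3, Il1b, Bcl2a1d, Ccl5, Cd74 and Ear2 lie below 1 in both.

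The sets held different rule genes. The choice of cells bears on these values, since a barcode low in one rule gene had to be high in another to pass. Irf7 was 2.39 times (1.71 to 3.40) as high in the Ly6c2-high members in control and 2.30 times (1.63 to 3.29) in OTM. Rsad2 stood at 112 CPM in the high and 433 CPM in the low control members, a ratio of 0.257 (0.158 to 0.413), and in OTM a ratio of 0.380 (0.0817 to 1.5) with 11 UMIs in all. Isg15 had ratios of 0.866 and 0.712. In levels, the high control members stood at 835 CPM of Irf7 and 808 of Isg15, and the low ones at 350.0 and 933. In the other monocytes, which were under the gate, Irf7 also stood higher in the Ly6c2-high barcodes. There it was at 173 against 42.5 CPM in control and at 203 against 124 CPM in OTM. Isg15 was there at 136 against 80.1 and 147 against 187 CPM, and Rsad2 at 12.8 against 13.8 and 20.1 against 15.5 CPM.
Among genes the rule did not use, Ly6a had high-to-low ratios of 7.29 in control and 3.33 in OTM, Ccr2 of 2.00 and 2.34, and Ifi27l2a of 1.92 and 1.89. The low members held more of some inflammatory genes: Il1b had ratios of 0.631 and 0.559, the neutrophil attractant Cxcl3 of 0.264 and 0.245, and the survival gene Bcl2a1d of 0.292 and 0.187. The other monocytes, split at the same cut, had the same order for Ly6a, Ifi27l2a, Il1b, Cxcl3 and Bcl2a1d in both libraries. In control, their Il1b stood at 1033 CPM in high and 2212 in low barcodes, and their Ly6a at 89.5 and 22.6. For these genes the order was thus not particular to the members. Ccr2 stood at 521 against 468 CPM there in control and at 405 against 462 CPM in OTM. The high members held more Il6 in both libraries, with ratios of 2.46 (1.02 to 7.20) in control and 7.09 (4.09 to 13.3) in OTM. In control this rested on 32 against 6 UMIs, and in OTM 1 barcode held 49 of the 163 member UMIs. The other monocytes stood at 178 against 210 CPM of Il6 in control and 546 against 413 CPM in OTM. In OTM Tnfsf9 had a ratio of 2.88 (2.10 to 4.04) and Hmox1 of 0.224, with 58 of 256 and 77 of 167 member UMIs in 1 barcode each. Control ratios of this pair were 0.635 and 1.62, and the difference between the libraries was not tested.

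The breadth of the response was also counted per cell, after thinning each barcode to 1500 UMIs. Of 68 interferon genes that the rule did not use, a control member held a median of 11 and another control monocyte a median of 6. In OTM these medians were 10 and 8. Without thinning they were 20 against 11 and 22 against 16. No member lacked all 68 genes, and neither did most other monocytes, of which 7 in control and 3 in OTM did. No barcode was left out by the thinning.

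The interferon gate was also passed by barcodes that the other gates had set aside. In control, 15.2% of the barcodes high in S100a8 and S100a9 (208 of 1366), 13% of those high in MHC class II (25 of 193), 22.4% of those high in Ace and Treml4 (24 of 107) and 24% of those high in C1q (12 of 50) had at least 0.1% of UMIs in the 4 genes. In OTM these were 6.72% (79 of 1176), 32.9% (26 of 79), 9.68% (3 of 31) and 2 of 5 barcodes. The share was 3.45% and 0.990% of the proliferating barcodes, and no barcode high in Elane and Mpo passed, 0 of 39 and 0 of 19, which allows shares of up to 9.03% and 17.6%. The monocytes, at 9.87% and 15.9%, were therefore neither the highest nor the lowest of these classes in either library. Over all kept barcodes the share was 12.7% in control and 8.82% in OTM.

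**Figure D5:**
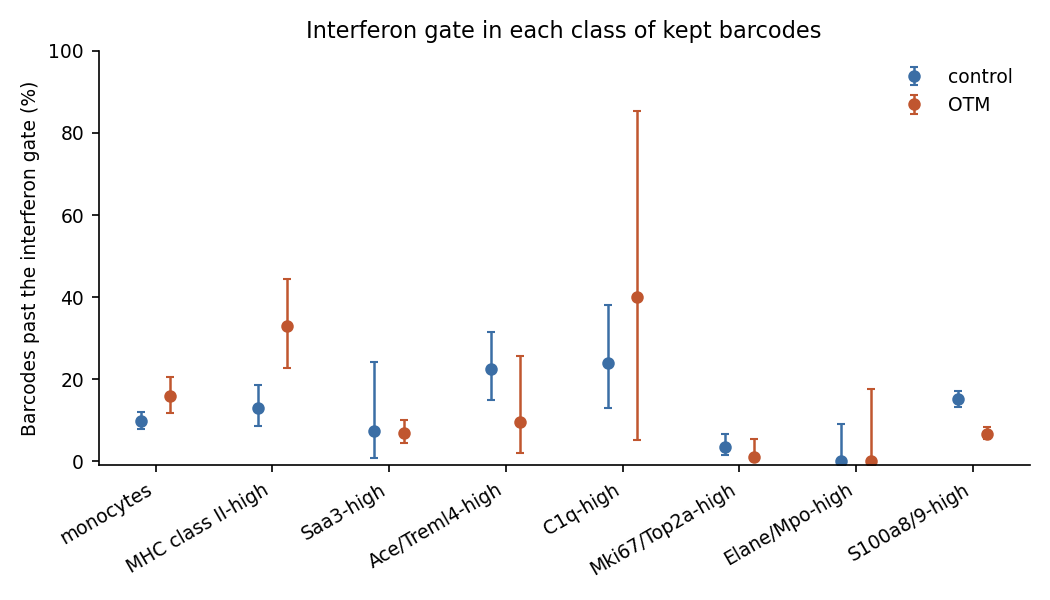
Share of barcodes (percent) with at least 0.1% of UMIs from the 4 rule genes in each class of kept barcodes, control in blue and OTM in orange, with Clopper-Pearson 95% intervals. Classes are named by the genes of the gates, applied in a fixed order. Monocytes stand at 9.87% and 15.9%, MHC class II-high barcodes at 13% and 32.9%, and S100a8/9-high barcodes at 15.2% and 6.72%.

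The levels of the members differed from those of the S100a8-high barcodes past the same gate. In control those barcodes stood at 1498 CPM of Isg15 and 283 of Irf7, and the members at 851 and 682. In OTM they stood at 1205 and 255 CPM and the members at 780 and 643. Slfn4, a Schlafen gene of myeloid cells, stood at 398 CPM in the S100a8-high barcodes and 118 in the members in control, and at 191 and 75.4 CPM in OTM. Bst2 showed the opposite order, with 199 against 859 CPM in control and 103 against 400.1 CPM in OTM. Cxcl10 stood at 88.8 against 296 CPM in control and at 184 against 761 CPM in OTM. Isg15 and Irf7 are genes of the gate. Under the gate in control, Isg15 stood at 90.1 CPM in S100a8-high barcodes and 92.1 in other monocytes, and Irf7 at 32.6 and 70.3. The order of Isg15 thus did not hold there. The orders of Slfn4, Bst2 and Cxcl10 held under the gate too. There, S100a8-high barcodes and other monocytes stood at 117 and 27.2 CPM of Slfn4, 61.6 and 259 CPM of Bst2 and 31.4 and 125 CPM of Cxcl10 in control. In OTM they stood at 95.01 and 21.3 CPM of Slfn4, 41.1 and 218 CPM of Bst2 and 62.5 and 493 CPM of Cxcl10. Ly6a was at 107 CPM in the S100a8-high barcodes in control and 103 CPM in OTM, below the 221 CPM (without the keratin-carrying barcode) and 256 CPM of the members, and under the gate at 9.05 against 36.8 CPM in control and 14.3 against 67.9 CPM in OTM.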

How the data were processed

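Gene expression was measured in 2 droplet libraries, 1 control and 1 OTM, grouped by their titles. The authors deposited raw, unnormalized UMI counts of 27998 genes per barcode, made with Cell Ranger (3.0.0, mm10 reference), and the submitters' processing notes also name Seurat 3.0.0. The gates were applied to each library apart. The members, gene lists and rules were chosen with earlier results of these data known. Counts were summed per group and given as CPM with exact Poisson intervals, ratios had exact conditional binomial intervals, and 0.5 UMIs were added before log2. A gene counted at 2-fold or more, with at least 100 UMIs (20 for lists). No p-value was computed. Named were the 10 highest and 10 lowest ratios per comparison, the rule and label genes and the 4 most abundant of each list. Further list members, the genes of the Ly6c2 split, the keratin genes and 3 genes of the closing section (Chil1, Irg1, Ppp6c) were chosen after seeing values. Some genes are not reported here. Doublets were left in, since Scrublet (scanpy 1.11.5) called 1 control and 4 OTM barcodes, too few to have worked. Alternatives were other gates, filters, scalings (edgeR 4.0.16) and minimums. Python 3.11.15, numpy 2.4.6, scipy 1.17.1, pandas 2.3.3, matplotlib 3.10.9 and R 4.3.3 were used. On simulated counts of 3234 genes for the control comparison, 200 of 200 changed genes had the right direction and 99% of their ratios lay in the interval, while 23 unchanged genes were past 2-fold.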

Additional observations from a re-analysis of the deposited data

Results flagged for a closer look

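Over 2125 genes with at least 100 UMIs in both libraries' comparisons, 23 had counting intervals of the ratio of interferon-response to other monocytes on opposite sides of 1 in the 2 libraries, 7 lower in control and higher in OTM and 16 the reverse. The 6 that were past 1.5-fold both ways are given here, and with 1 library per condition the difference was not tested for any of them. Chil1, a chitinase-like protein of myeloid cells, had a ratio of 1.76 (1.31 to 2.34) in control and 0.507 (0.337 to 0.737) in OTM. Irg1, which makes the antimicrobial metabolite itaconate, had a ratio of 1.91 (1.44 to 2.49) in control and 0.593 (0.426 to 0.806) in OTM, and was found in 29 of 81 and 20 of 46 members. Ppp6c, a phosphatase subunit, had ratios of 1.60 (1.01 to 2.44) and 0.463 (0.195 to 0.948), with 8 UMIs in the OTM members. The MHC class II genes went the other way. Cd74, the invariant chain, had a ratio of 0.568 (0.492 to 0.653) in control and 2.10 (1.87 to 2.35) in OTM, H2-Aa 0.632 (0.435 to 0.891) and 1.67 (1.12 to 2.44), and H2-Ab1 0.511 (0.360 to 0.707) and 2.41 (1.64 to 3.48). These 3 genes were capped at 1.5% of UMIs by the rule in members and other monocytes alike, and H2-Aa and H2-Ab1 were found in only 7 and 8 of the 46 OTM members.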

How the results depend on the processing

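Each condition was 1 library, and most members held few rule UMIs, so that counting error and the placing of the gate limit every value. No paired analysis was possible because each group holds 1 sample and no result comes from a test. Leaving out a replicate could not be done for the same reason. A gene under 100 UMIs in an alternative was given no value there. The share of interferon-response monocytes was 0.705% in control and 0.341% in OTM with the gate at 0.2%, 5.86% and 6.14% with the gate at 0.05%, 0.494% and 0.195% with a gate on 6 interferon genes outside the rule, and 3.67% in OTM with a filter of 200 genes per 1000 UMIs. Of the 14 control and 4 OTM barcodes past the gate on other genes, 9 and 3 were members, which were 11.1% and 6.52% of the members. The numbers of genes at least 2-fold higher and lower in control members were 218 and 290 with the gate at 0.2% and 2993 and 1151 with no minimum of UMIs, and 42 were lower without barcodes led by another cell type and 38 against monocytes with no rule UMI. In OTM members they were 196 and 202 at 0.2%, 1696 and 954 with no minimum and 21 and 55 with TMM scaling, and 21 were higher without barcodes led by another type. Between OTM and control members they were 9 and 7 at 0.2% (fewer genes reached the minimum) and 1829 and 2285 with no minimum, and 12, 11 and 12 were lower with the filter of 200 genes per 1000 UMIs, without barcodes led by another type and without the keratin-carrying barcode, the last an alternative chosen after seeing the data. Median log2 ratios of MHC class I genes in control were 0.41 at 0.2% and 0.45 with totals without hemoglobin, ribosomal and mitochondrial genes. In OTM they were 1.02 at 0.2% and 1.07 against monocytes with no rule UMI for the p200 family, 0.85 and -0.073 at 0.2% for signalling genes and chemokines, and 1.37 against monocytes with no rule UMI and 0.84 with TMM for antiviral effectors. Turned in direction, as log2 ratios, were Gsto1 in control (-0.26 with the gene filter, -2.24 at 0.2%, -0.18 without barcodes led by another type, -0.25 without the keratin-carrying barcode), Csta1 (-2.94), Ecm1 (-2.99) and Plet1 (-3.34) at 0.2%, and Ly6a between OTM and control (0.21, 0.47, 0.20 and 0.21 in the order given for Gsto1). With the gene filter and without barcodes led by another type, the hemoglobin genes turned too, in control Hba-a1 (0.18 and 0.24), Hbb-bs (0.20 and 0.28) and Hbb-bt (0.43 and 0.47), and in OTM Hbb-bs (0.47 and 0.55). TMM scaling moved the median log2 ratio of all genes to -0.08 in control and -0.12 in OTM, and totals without hemoglobin, ribosomal and mitochondrial genes moved it to -0.14 and -0.07. Over all alternatives, those above included, 340 of 348 list medians, 720 of 809 gene ratios, 44 of 64 counts and 11 of 18 shares stayed within the limits set for them.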

Other observations

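The Saa3 gate set aside OTM barcodes that also passed the interferon gate. Of the 351 Saa3-high OTM barcodes, 24 passed it, with 1202 CPM of Isg15 and 626 CPM of Irf7, against 780 and 643 CPM in the 46 OTM members. Isg15 and Irf7 are genes of that gate, so their levels describe the choice. Genes outside the rule stood at 219 against 171 CPM for Rtp4, 363 against 302 CPM for Ifi204, 382 against 400.1 CPM for Bst2 and 238 against 256 CPM for Ly6a, and these pairs of counting intervals overlapped. Ly6c2 was lower, at 2172 against 3751 CPM, and so was Cxcl10, at 526 against 761 CPM. Among MHC class II-high barcodes, the 25 past the gate in control held 1003 CPM of Ly6a, found in 12 of them, and the 26 in OTM 281 CPM, found in 15.

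Of the 7 granulocyte precursor genes, 5 had at least 20 UMIs in OTM, and 3 of these were at least 2-fold lower in the interferon-response than in the other monocytes, against 6.5% of all 5566 genes. In control 1 of 5 was, against 7.63%. Elane stood at 16.4 against 78.0 CPM in OTM, and 1 barcode held 39 of its 139 UMIs in the other monocytes. Elane, Mpo, Prtn3 and Ctsg of this list were together capped at 1% of UMIs by a gate, in members and other monocytes alike. The nonclassical monocyte list, whose Ace, Treml4, Eno3 and Adgre4 were capped by a gate, summed to 368 CPM in control members and 354 CPM in OTM members, against 394 and 259 CPM in the other monocytes.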
